A study of Mus musculus with 24 samples.

Results

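The genes examined here are 7 that mark the earliest steps towards lymphocytes: the recombinase genes Rag1 and Rag2, the DNA polymerase gene Dntt, the receptor genes Il7r, Notch1 and Ccr9, and the chromatin organiser gene Satb1. They were taken as a fixed list by gene symbol, and 6 of the 7 had a probe on the array, among 17741 named genes in all. The list was chosen with earlier results of these data known, so its share of calls beside all genes is no independent test. No probe was matched to Notch1, which was not analysed here. Where a gene had several probes, the brightest one stood for it.

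Sorted bone marrow cells of 8 C57BL/6 mice were profiled on 24 one-colour RNA arrays, 3 for each mouse. All mice had been injected with tamoxifen, which induces the deletion of Bap1 in the KO genotype throughout the body. BAP1 is a nuclear deubiquitinase that removes ubiquitin from histone H2A. The 4 groups held 2 mice each: LSK cells of Bap1 KO mice (mice 2 and 4), LSK cells of WT mice (mice 1 and 3), myeloid progenitors of Bap1 KO mice (mice 7 and 8) and myeloid progenitors of WT mice (mice 5 and 6). LSK cells lack lineage markers and carry Sca1 and Kit, and are enriched for hematopoietic stem cells. The myeloid progenitors lack lineage markers and Sca1 and carry Kit. No mouse gave both populations. The labels give neither age nor sex, name no Cre driver, and do not say how much of Bap1 was left.

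V(D)J recombination assembles antigen receptor genes in developing B and T cells. RAG1 and RAG2 form the enzyme that cuts DNA at recombination signals, TdT (encoded by Dntt) adds nucleotides at the coding ends, and the general end-joining proteins seal the break. A subset of multipotent progenitors in the bone marrow already transcribes some of these genes before a lineage is fixed, a state called lymphoid priming. Interleukin-7 receptor signals then sustain common lymphoid progenitors, and NOTCH1 and CCR9 serve in T lineage commitment and in homing to the thymus.

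The values are log2 expression as deposited, on which 1 unit is a 2-fold difference of the array signal. They ran from 5.66 to 15.93, and the 25th percentile lay at 6.15 to 6.18 on each array, so a value near 6 is at the low end of the scale. A fold is given where the dimmer group averaged at least 6.5, a level set with the values known; elsewhere the log2 difference ends at that low end. Arrays of the same mouse correlated at 0.9886 to 0.9959 across probes and arrays of different mice of a group at 0.9806 to 0.9911. Bap1 itself averaged 11.96 and 11.84 in the KO LSK mice against 11.55 and 11.45 in the WT LSK mice (difference 0.40 ± 0.18, SE, limma adjusted p = 0.321). The KO myeloid progenitors averaged 11.67 and 11.85 against 11.54 and 11.59 in the WT ones (0.20 ± 0.18, adjusted p = 0.843). The place of its probe relative to the deleted part was not given, so this level does not check the genotypes. The Y-linked gene Kdm5d read 7.88 in mouse 1 and 8.15 in mouse 5, both WT, and 5.93 to 6.02 in the other 6 mice, so results are also given without these mice where that changes them. Of 10 measured stem and multipotent progenitor markers, 7 were higher in LSK cells than in myeloid progenitors of WT mice, among them Hlf (by 3.88), Mecom (4.32) and Flt3 (2.89). Kit, which both gates select, differed by 0.22 (adjusted p = 0.571), Mllt3 by 0.47 (0.134) and Slamf1 by 0.08 (0.566). No probe was matched to Ly6a, which encodes Sca1.

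In LSK cells 4 of the 6 measured genes fell in KO mice at an adjusted p under 0.05: Rag1, Rag2, Il7r and Ccr9. Over all genes 2.9% were called lower and 1.74% higher. For all 6 genes both KO mice lay below both WT mice, which held for 20.9% of all genes. The median difference of the 6 genes was -1.34 on the log2 scale, against 0.02 for all genes. In myeloid progenitors 2 of the 6 fell, Rag1 and Il7r, where 1.74% of all genes were called lower and 0.908% higher. In this population both KO mice lay below both WT mice for 4 of the 6 genes and for 20.8% of all genes, and the median difference was -0.49 against 0 for all genes. Without mice 1 and 5 each population kept 1 WT mouse. The differences in LSK cells were -2.83 for Rag1, -2.19 for Il7r, -1.30 for Dntt, -0.92 for Ccr9, -0.48 for Satb1 and -0.36 for Rag2. In myeloid progenitors they were -2.54 for Rag1, -1.25 for Il7r and between -0.25 and 0.37 for the others. Sorted cells were measured in bulk, so fewer cells of a type and less RNA per cell cannot be told apart in any of these values.

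Because Rag1, Rag2, Il7r and Ccr9 fell in KO LSK cells, their proximal promoters are shown, with the letters that E proteins and other lymphoid regulators read. Each is the 250 bases before the start that RefSeq's promoter table (GRCm38.p6) gives for the gene, read 5′ to 3′ along it. For Il7r that start lies inside the annotated gene, so that the last 65 bases of the window, with the E-box nearest the start, fall within the gene span given further on. The capitals mark E-boxes (CANNTG, read by E proteins such as E2A).
Rag1, chr2:101649533-101649782, minus strand: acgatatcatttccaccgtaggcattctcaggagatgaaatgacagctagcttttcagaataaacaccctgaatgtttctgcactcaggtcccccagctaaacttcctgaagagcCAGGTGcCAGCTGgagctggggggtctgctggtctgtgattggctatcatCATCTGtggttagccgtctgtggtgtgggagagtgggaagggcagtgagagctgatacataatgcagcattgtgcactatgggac
Rag2, chr2:101624462-101624711, plus strand: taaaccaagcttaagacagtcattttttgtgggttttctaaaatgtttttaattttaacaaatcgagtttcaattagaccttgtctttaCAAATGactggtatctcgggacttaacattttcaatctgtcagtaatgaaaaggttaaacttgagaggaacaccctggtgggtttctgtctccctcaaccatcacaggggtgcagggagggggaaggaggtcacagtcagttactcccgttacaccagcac
Il7r, chr15:9529877-9530126, minus strand: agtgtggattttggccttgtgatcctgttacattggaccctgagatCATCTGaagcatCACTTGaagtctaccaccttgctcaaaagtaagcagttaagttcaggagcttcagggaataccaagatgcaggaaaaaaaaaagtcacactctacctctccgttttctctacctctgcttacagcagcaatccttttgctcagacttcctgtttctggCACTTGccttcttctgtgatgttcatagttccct
Ccr9, chr9:123766961-123767210, plus strand: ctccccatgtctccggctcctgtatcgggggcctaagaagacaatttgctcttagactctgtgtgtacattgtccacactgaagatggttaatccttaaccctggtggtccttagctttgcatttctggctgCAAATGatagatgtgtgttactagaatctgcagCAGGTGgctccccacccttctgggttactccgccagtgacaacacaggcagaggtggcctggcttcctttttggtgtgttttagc

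Counted from that start, the E-boxes began at -135, -128 and -85 for Rag1, at -161 for Rag2, at -204, -192 and -34 for Il7r and at -118 and -85 for Ccr9. Of all 32851 promoters in the same table, 66.2% held an E-box in this window, so most promoters hold one. Both strands were also searched for TGGGAA (an Ikaros core, in 21.6% of promoters), TGTGGT (a RUNX core, 14.0%) and TGTTTAC (a FOXO site, 3.17%). The Rag1 promoter held TGGGAA once and TGTGGT at -81 and -67, the first of which shares 2 bases with the E-box at -85. The promoters of Rag2, Il7r and Ccr9 held none of these 3, and TGTTTAC was in none of the 4. A match is a run of letters and not evidence of binding.

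Rag1 encodes the catalytic subunit of the recombinase and changed most among the 6 genes in both populations. It averaged 5.89 and 5.96 in the KO LSK mice against 9.53 and 8.76 in the WT LSK mice. The 6 arrays of KO mice spanned 5.88 to 5.99 and the 6 arrays of WT mice 8.69 to 9.60, so that KO arrays sat at the low end of the scale with no overlap. Rag1 fell by 3.22 ± 0.24 (SE, limma adjusted p = 0.000152; 95% interval -3.75 to -2.68). In myeloid progenitors it averaged 5.93 and 6.01 in KO mice against 8.07 and 8.51 in WT mice. The difference was -2.32 ± 0.24 (adjusted p = 0.000874), and again the groups were far apart. Both calls held in all 18 alternative settings, with the difference between -3.60 and -2.83 in LSK cells and between -2.54 and -2.10 in myeloid progenitors.

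Rag2, the partner subunit that binds modified histone H3 at active chromatin, lies next to Rag1 on chromosome 2, at 101624712 to 101632528 on the plus strand, against 101638252 to 101649532 on the minus strand for Rag1, with 5723 bases between the 3′ ends. Its probe was dim in every mouse. It averaged 6.03 and 6.01 in the KO LSK mice against 6.46 and 6.38 in the WT LSK mice. The difference of -0.40 ± 0.07 passed (adjusted p = 0.00729), although single arrays of the groups lay as near as 6.15 for KO and 6.23 for WT. In myeloid progenitors Rag2 averaged 6.06 and 5.97 in KO mice against 6.16 and 6.26 in WT mice. That difference of -0.19 ± 0.07 did not pass (adjusted p = 0.24), and the arrays of the groups overlapped. The call in LSK cells was lost without the trend and robust options of limma (-0.40, adjusted p = 0.0586), and also without mice 1 and 5 (-0.36).

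Dntt (chromosome 19, 41029275 to 41059525) encodes terminal deoxynucleotidyl transferase, which adds untemplated nucleotides at V(D)J junctions. It averaged 8.10 and 8.46 in the KO LSK mice against 9.80 and 9.58 in the WT LSK mice. The mice did not overlap, but the difference of -1.41 ± 0.37 (2.65-fold; 95% interval -2.24 to -0.58) missed the threshold (adjusted p = 0.0756). Its call depended on the setting: it passed in 9 of 18 alternatives, with adjusted p from 2.79e-05 to 0.372. In myeloid progenitors Dntt averaged 6.81 and 6.66 in KO mice against 8.18 and 6.88 in WT mice. The WT mice differed from each other by 1.30, more than the genotype difference of -0.80 ± 0.37 (adjusted p = 0.489). That value turned on the WT mice, being -1.45 without mouse 6 (adjusted p = 0.0291) and -0.15 without mouse 5. A second, dimmer Dntt probe averaged 7.34 and 7.18 in the KO LSK mice against 8.07 and 8.08 in the WT LSK mice. With it the difference in LSK cells was -0.82 ± 0.19 and passed (adjusted p = 0.0411), and that in myeloid progenitors was -0.63 ± 0.19 (adjusted p = 0.166).

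Il7r (chromosome 15, 9506159 to 9529941) encodes the alpha chain of the interleukin-7 receptor, whose signals lymphoid progenitors need to survive and divide. It averaged 7.35 and 6.93 in the KO LSK mice against 9.16 and 9.33 in the WT LSK mice. The difference of -2.11 ± 0.24 is 4.31-fold (adjusted p = 0.00112) and its call held in all 18 alternatives, from -2.32 to -1.90. In myeloid progenitors Il7r averaged 6.45 and 6.33 in KO mice against 8.36 and 7.64 in WT mice. It fell by 1.61 ± 0.24 there (adjusted p = 0.00599), with KO mice near the low end of the scale and no overlap of arrays. This call was lost without mouse 8 (-1.55), and also without the trend and robust options of limma (-1.61, adjusted p = 0.0582).

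Ccr9 (chromosome 9, 123767211 to 123783457) encodes a chemokine receptor through which progenitors are drawn to the thymus; plasmacytoid dendritic cells carry it too. It averaged 7.45 and 7.19 in the KO LSK mice against 8.96 and 8.24 in the WT LSK mice. It fell by 1.28 ± 0.24 (2.43-fold, adjusted p = 0.0125). The WT mice stood 0.71 apart, and the call was lost without mouse 1 (-0.92), without mouse 4 (-1.15) and without mice 1 and 5 (-0.92). It was also lost without the trend and robust options of limma (-1.28, adjusted p = 0.0657). In myeloid progenitors Ccr9 averaged 7.38 and 7.32 in KO mice against 7.66 and 7.35 in WT mice. The mice of both genotypes overlapped (difference -0.16 ± 0.24, adjusted p = 0.931; 95% interval -0.68 to 0.36). A second Ccr9 probe read 5.90 to 6.00 in all 8 mice, at the low end of the scale, with a difference of 0.02 ± 0.04 in LSK cells (adjusted p = 0.865). The mean of both probes differed by -0.63 in LSK cells and still passed.

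Satb1 (chromosome 17, 51736187 to 51833290) encodes a protein that organises chromatin loops and promotes the lymphoid programme in early progenitors. It averaged 6.84 and 7.31 in the KO LSK mice against 8.11 and 7.56 in the WT LSK mice. The mice of each genotype stood 0.48 and 0.56 apart, and the difference of -0.76 ± 0.22 (1.69-fold; 95% interval -1.25 to -0.27) missed the threshold (adjusted p = 0.0948). It passed in 4 of 18 alternatives, among them the fits of single arrays. The difference was only -0.48 without mouse 1 and also without mice 1 and 5. In myeloid progenitors Satb1 averaged 7.02 and 7.18 in KO mice against 7.05 and 6.73 in WT mice. The genotypes overlapped there, with a difference of 0.21 ± 0.22 (adjusted p = 0.883).

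**Figure D1:**
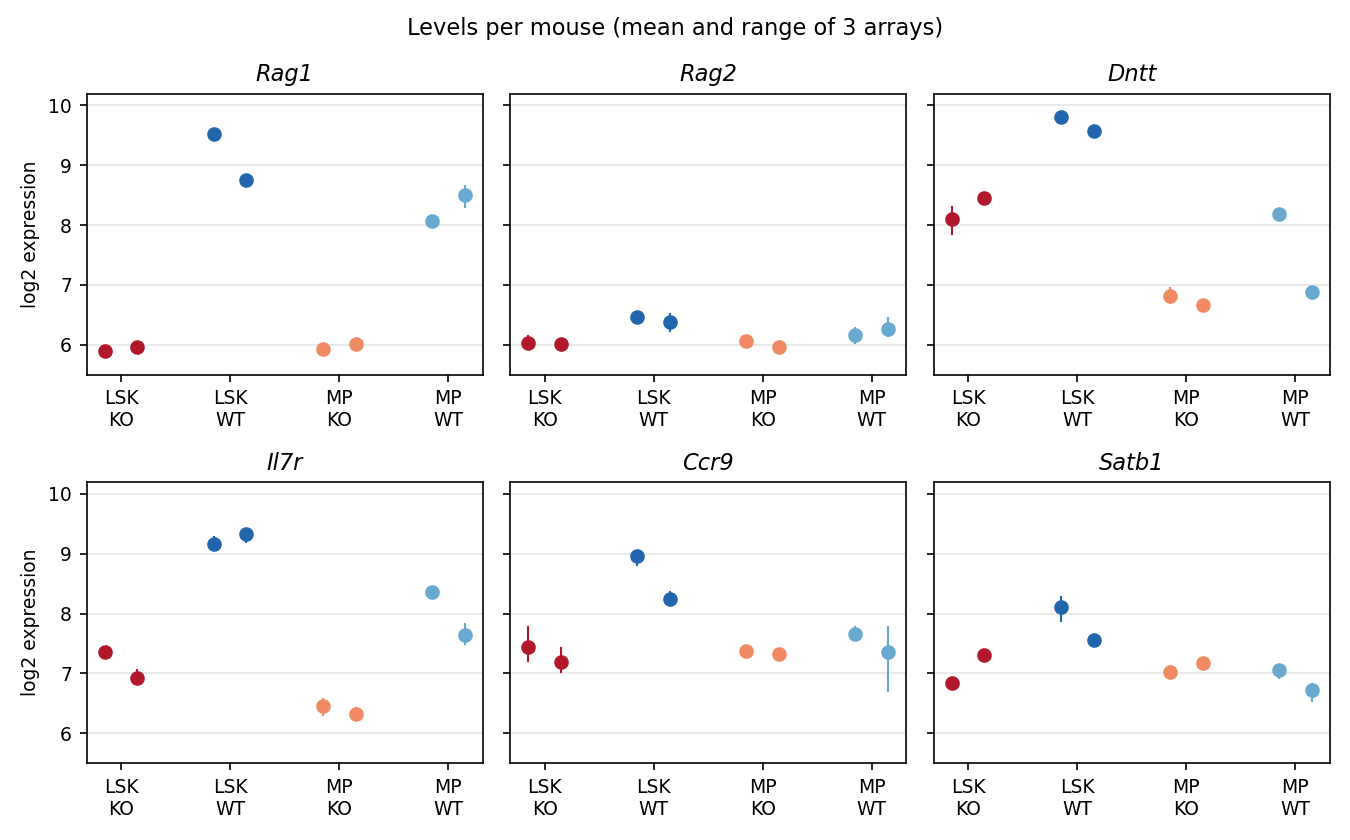
Log2 expression of the 6 measured genes in each mouse; points are mouse means and vertical lines the range of its 3 arrays, for LSK cells and myeloid progenitors (MP) of KO and WT mice. Rag1 sits between 5.89 and 6.01 in all 4 KO mice and between 8.07 and 9.53 in all 4 WT mice, while Ccr9 and Satb1 separate the genotypes in LSK cells and overlap in MP.

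**Figure D2:**
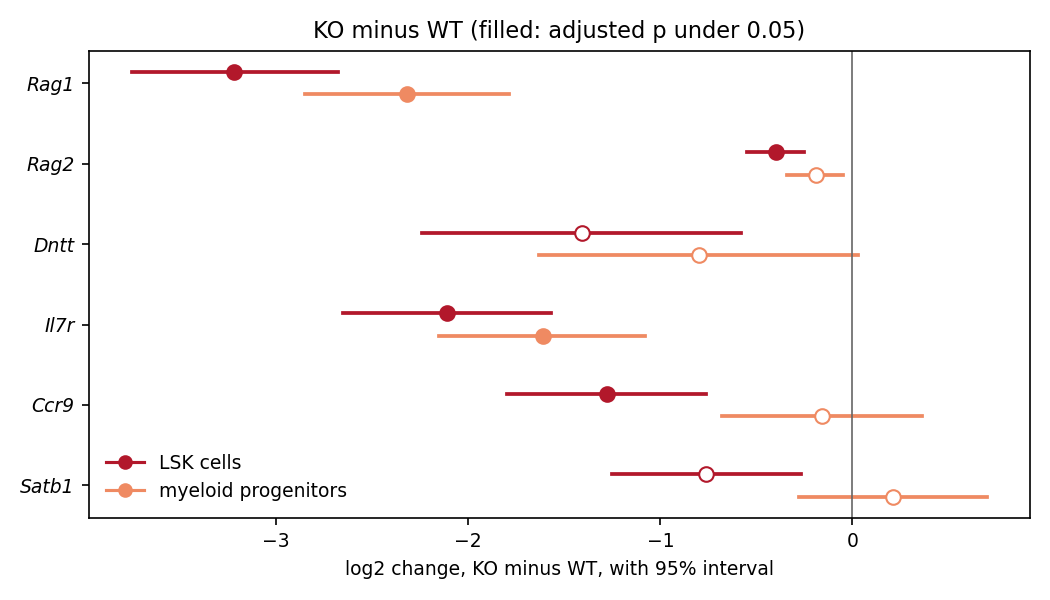
Log2 change, KO minus WT, of the 6 measured genes with its 95% interval in LSK cells (dark) and myeloid progenitors (light); filled points passed at an adjusted p under 0.05. Rag1 and Il7r passed in both populations, Rag2 and Ccr9 in LSK cells, and Dntt and Satb1 in neither.

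The difference between the KO effects, LSK cells minus myeloid progenitors, was tested in the same fit. None of the 6 genes passed, against 0.062% of all genes in either direction. At an unadjusted limma p under 0.05 there were 3 of the 6, against 6.35% of all genes. Ccr9 differed by -1.12 ± 0.33 (adjusted p = 0.435), Satb1 by -0.97 ± 0.31 (adjusted p = 0.548) and Rag1 by -0.90 ± 0.34 (adjusted p = 0.702). The difference for Rag1 was -0.52 without mouse 1 and -0.30 without mice 1 and 5 (adjusted p = 0.999 and 0.996), and that for Ccr9 was -0.53 with the mean of both probes. When the 24 arrays were fitted singly, with mouse as a random block, Rag1 and Satb1 passed, as did 2.56% of all genes. The p-values of that fit are too small where the arrays of a mouse lie closer together than its single mouse correlation. Rag1 averaged 5.93 in KO LSK cells and 5.97 in KO myeloid progenitors, at the low end of the scale. Its difference of effects thus follows the WT means, 9.14 in LSK cells and 8.29 in myeloid progenitors. It cannot show whether the KO effect on Rag1 differs between the populations. Rag2 and Ccr9 passed in neither fit, so their calls in LSK cells and not in myeloid progenitors were not shown to be a difference between the populations.

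The same genes were compared between the populations within each genotype. In WT mice 5 of the 6 were higher in LSK cells than in myeloid progenitors, where 8.08% of all genes were called higher. Dntt had the largest difference, at 9.69 ± 0.16 in LSK cells against 7.53 ± 0.92 in myeloid progenitors (SD, n = 2 mice each; 2.15 ± 0.37, SE, 4.45-fold, limma adjusted p = 0.0063). Il7r was higher by 1.25 ± 0.24 (adjusted p = 0.0071), Ccr9 by 1.09 ± 0.24 (0.0117), Satb1 by 0.95 ± 0.22 (0.0189) and Rag1 by 0.85 ± 0.24 (0.0415). Rag2 did not pass (0.21 ± 0.07, adjusted p = 0.0659). The call of Rag1 was lost in 11 of 18 alternatives, some of which kept both mice of each WT group. Among these were the compared groups alone (0.85, limma adjusted p = 0.0848) and Kdm5d as a covariate (0.86, 0.0594). Without the trend and robust options Rag1 (0.85, 0.105) and Satb1 (0.95, 0.0658) lost their calls. The calls in WT mice also rested on few mice, and each of the following fits left 1 mouse in a WT group. Without mouse 1 Dntt differed by 2.04, and Rag1, Ccr9 and Satb1 by 0.47, 0.74 and 0.67. Without mouse 6 Il7r differed by 0.89, and Rag1, Ccr9 and Satb1 by 1.07, 0.94 and 0.79. Without mice 1 and 5 Rag1, Ccr9 and Satb1 differed by 0.25, 0.89 and 0.83. In these fits calls were lost for Rag1, Dntt, Il7r, Ccr9 and Satb1, and over all genes.

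In KO mice 1 of the 6 genes was higher in LSK cells, Dntt, where 7.26% of all genes were called higher. Dntt averaged 8.28 ± 0.25 in KO LSK cells against 6.73 ± 0.11 in KO myeloid progenitors (SD, n = 2 mice each; 1.54 ± 0.37, SE, adjusted p = 0.0273). The second, dimmer Dntt probe was higher by 1.06 ± 0.19 in KO mice (limma adjusted p = 0.00582) and by 1.25 ± 0.19 in WT mice (0.00218). Il7r averaged 7.14 ± 0.30 in LSK cells against 6.39 ± 0.09 in myeloid progenitors, which did not pass (0.75 ± 0.24, adjusted p = 0.0708). The other 4 differed by -0.04 to 0.00, and their mice overlapped. Leaving out mouse 1, 2, 3, 4, 7 or 8 in turn removed the call of Dntt, with the difference then between 1.37 and 1.72. This comparison and that in WT mice use the same mice as the genotype comparisons and are no separate support for them. Among the 4 groups, WT LSK cells had the highest mean for all 6 genes. WT myeloid progenitors came next for Rag1 (8.29 ± 0.31), Rag2 (6.21 ± 0.07), Il7r (8.0 ± 0.51) and Ccr9 (7.51 ± 0.22), of which Ccr9 overlapped with both KO groups. For Dntt the next was KO LSK cells, though one WT mouse of the myeloid progenitors (8.18) lay between the KO LSK mice. For Satb1 the other 3 groups, at 7.10 ± 0.11 in KO myeloid progenitors, 7.08 ± 0.34 in KO LSK cells and 6.89 ± 0.22 in WT myeloid progenitors, overlapped.

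**Figure D3:**
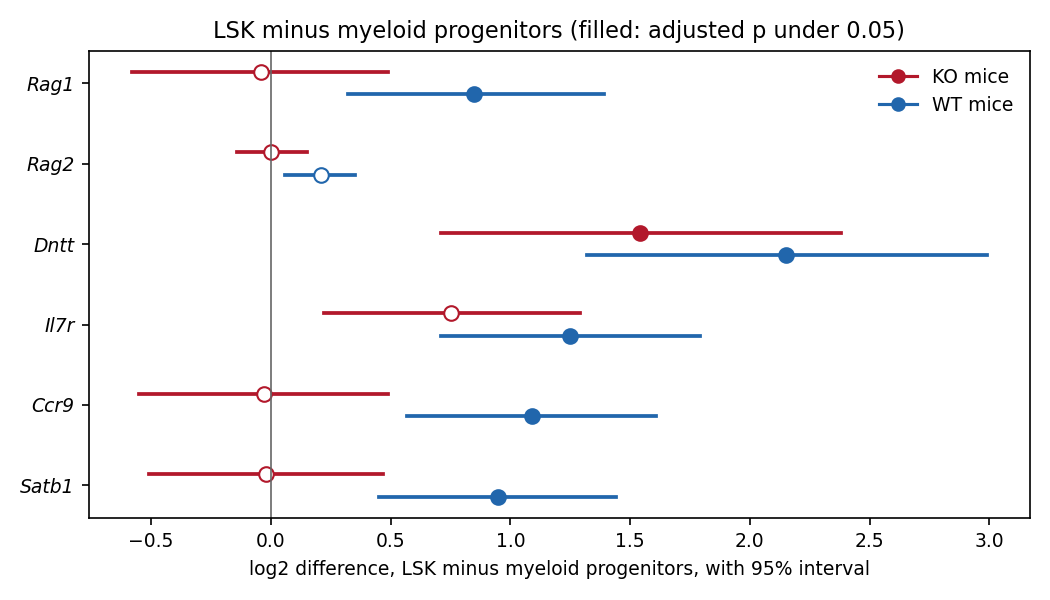
Log2 difference, LSK cells minus myeloid progenitors, of the 6 measured genes with its 95% interval in KO mice (red) and WT mice (blue); filled points passed at an adjusted p under 0.05. In WT mice 5 genes passed, and in KO mice Dntt alone among the 6, while Rag1, Rag2, Ccr9 and Satb1 lie at -0.04 to 0.00.

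Genes that work with the recombinase were followed through 6 pathway lists. The first holds cofactors of V(D)J recombination and the general end-joining proteins that complete it and also repair other breaks. Of its 10 measured genes other than Rag1, Rag2 and Dntt, 0 passed with limma in LSK cells and 0 in myeloid progenitors, while 2 were lower in each at an unadjusted p under 0.05, against 9.21% of all genes in LSK cells and 6.56% in myeloid progenitors. With all arrays in the fit 1 was called lower in LSK cells and 2 in myeloid progenitors, against 8.32% and 5.48% of all genes. The lowest was Lig4, the ligase that seals the joints (named after its values were seen), at 8.16 and 8.63 in KO LSK mice against 9.10 and 9.53 in WT LSK mice (-0.92 ± 0.24, adjusted p = 0.0618). The median difference of the 10 was -0.20 in LSK cells and -0.19 in myeloid progenitors.

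Of 9 further lymphoid priming genes, 3 fell in KO LSK cells and none rose. Btla, an inhibitory receptor of lymphoid cells, averaged 8.61 and 8.42 in KO mice against 9.70 and 9.53 in WT mice (-1.10 ± 0.22, adjusted p = 0.0172). Mef2c, a transcription factor that favours lymphoid over myeloid fate, averaged 11.03 and 11.04 in KO mice against 11.91 and 11.99 in WT mice (-0.92 ± 0.20, adjusted p = 0.0254). Ccr7, a chemokine receptor that acts beside Ccr9 in thymus homing, averaged 6.32 and 6.04 in KO mice against 7.20 and 6.79 in WT mice (-0.81 ± 0.14, adjusted p = 0.0109). In myeloid progenitors Mef2c fell again, to 9.84 and 9.57 in KO mice against 10.74 and 10.73 in WT mice (-1.03 ± 0.20, adjusted p = 0.0198). The calls were not all firm. Btla lost its call without mouse 1 (-1.01, adjusted p = 0.117) or mouse 4 (-1.0, 0.054). Mef2c lost its call in each population on leaving out any 1 of the 4 mice compared, at -0.96 to -0.88 in LSK cells and -1.16 to -0.89 in myeloid progenitors, and with the mean of all its probes (-0.64 and -0.60). Without mice 1 and 5 none of the 3 genes passed in LSK cells. Together with the 6 genes under study, 7 of 15 fell in LSK cells, and 4 to 8 did on leaving out each mouse in turn, but 3 without mice 1 and 5. In myeloid progenitors 3 of 15 fell, and 1 to 3 on leaving out each mouse.

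The transcription factors that act upstream of the Rag genes and Dntt moved in single members. Of 20 measured, 2 fell and 1 rose in KO LSK cells. Ebf1, which specifies the B lineage, averaged 6.28 and 6.32 in KO LSK mice against 8.37 and 8.32 in WT LSK mice (-2.04 ± 0.14, adjusted p = 7.56e-05), and 6.20 and 6.27 in KO myeloid progenitors against 7.88 and 7.88 in WT ones (-1.64 ± 0.14, adjusted p = 0.000261). Bach2, a repressor active in early B cell development, averaged 7.20 and 7.28 in KO LSK mice against 8.67 and 8.49 in WT LSK mice (-1.34 ± 0.25, adjusted p = 0.0141). Id1, an inhibitor of the E proteins that read E-boxes, averaged 9.34 and 9.52 in KO LSK mice against 8.24 and 8.09 in WT LSK mice (1.26 ± 0.25, adjusted p = 0.0181). In myeloid progenitors the other call was Tcf4, an E protein gene, at 7.74 and 7.78 in KO mice against 9.15 and 9.47 in WT mice (-1.55 ± 0.23, adjusted p = 0.00595). Ebf1 kept its calls in all 17 alternatives that measured it, and without mice 1 and 5 it was the 1 of the 20 that passed in LSK cells. Bach2 did not pass when arrays were fitted singly with mouse as random block (-1.34, adjusted p = 0.219), nor with the replicate block (0.231), nor without mouse 1 (-1.25, 0.0859) or mouse 2 (-1.30, 0.0799). Id1 lost its call without mouse 1 (1.34, adjusted p = 0.0699), mouse 3 (1.18, 0.0891) or mouse 4 (1.17, 0.0567), and Tcf4 without mouse 6 (-1.39, 0.0528).

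Of 15 signalling partners of Il7r, 0 passed as lower with limma in either population, and 1 and 0 of them were lower at an unadjusted p under 0.05, in LSK cells and in myeloid progenitors. With all arrays in the fit these counts were also 1 and 0. Among the partners, Il2rg read 5.84 to 5.95 in all 8 mice, at the low end of the scale, where no fall could be seen. In KO LSK cells 1 of the 15 rose, Socs2, and in KO myeloid progenitors 3 rose, Socs2, Socs3 and Cish, all of which are induced by STAT signals of many cytokine receptors and feed back on them. Socs2 averaged 12.51 and 11.91 in KO LSK mice against 10.55 and 10.75 in WT LSK mice (1.56 ± 0.30, adjusted p = 0.0166), and 10.48 and 11.22 in KO myeloid progenitors against 8.50 and 9.0 in WT ones (2.10 ± 0.30, adjusted p = 0.00476). Socs3 averaged 9.80 and 9.49 in KO myeloid progenitors against 7.51 and 7.42 in WT ones (2.18 ± 0.32, adjusted p = 0.00507). Cish averaged 11.04 and 11.94 in KO myeloid progenitors against 9.38 and 9.63 in WT ones (1.99 ± 0.32, adjusted p = 0.00979). The mice did not overlap in any of these, yet the calls were lost for Socs2 in LSK cells without mouse 1 (1.45, adjusted p = 0.103) or mouse 2 (1.25, 0.0999) and in myeloid progenitors without mouse 5 (1.85, 0.0502). They were also lost for Socs3 without mouse 6 (2.13, 0.0566) and for Cish without mouse 5 (1.86, 0.0965), mouse 6 (2.11, 0.0668) or mouse 8 (1.53, 0.0643). Without mice 1 and 5, 0 of the 15 rose in LSK cells and 1 in myeloid progenitors.

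Notch receptors 1 to 4 had no matched probe, and 14 other genes of the Notch pathway were measured. With limma 0 fell in either population (1 and 2 were lower at an unadjusted p under 0.05, and also with all arrays in the fit), while 2 rose in KO LSK cells and 4 in KO myeloid progenitors. Tcf7, a transcription factor of early T cell development that NOTCH1 induces in the thymus, averaged 7.91 and 8.04 in KO LSK mice against 6.84 and 6.72 in WT LSK mice (1.2 ± 0.16, adjusted p = 0.00225). In myeloid progenitors it averaged 8.16 and 8.31 in KO mice against 6.75 and 6.53 in WT mice (1.60 ± 0.16, adjusted p = 0.000669), and both calls held in all 18 alternatives. The Notch ligand gene Jag1 rose in LSK cells (0.65 ± 0.16, adjusted p = 0.0419) and in myeloid progenitors (1.04 ± 0.16, adjusted p = 0.00574). The ligand gene Jag2 (0.47 ± 0.10, adjusted p = 0.0259) and the Notch target and feedback inhibitor Nrarp (1.28 ± 0.24, adjusted p = 0.0195) rose in myeloid progenitors. The Jag2 probe was dim, at 6.41 and 6.53 in KO myeloid progenitors against 6.0 and 5.99 in WT ones, the latter at the low end of the scale. Several of these calls were not firm. That of Jag1 in LSK cells was lost on leaving out mouse 1, 2, 3, 4, 5 or 6 (0.60 to 0.71). Mice 5 and 6 gave myeloid progenitors, and without either the difference in LSK cells stayed at 0.65. The Jag1 call in myeloid progenitors was lost without mouse 6 (0.96). Without the trend and robust options of limma Jag1 did not pass in LSK cells (0.65, adjusted p = 0.111). In myeloid progenitors Jag1 (1.04, 0.0506), Jag2 (0.47, 0.0991) and Nrarp (1.28, 0.0668) did not pass either. Jag2 lost its call without mouse 5 (0.48), 6 (0.47) or 8 (0.41), and Nrarp without mouse 5 (1.12), 6 (1.43) or 8 (1.09). Without mice 1 and 5 the count was 1 in each population.

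Of 7 chemokine receptors of lymphoid cells other than Ccr9, 2 fell in KO LSK cells. In myeloid progenitors 0 passed with limma, 0 had an unadjusted p under 0.05, and 0 passed with all arrays in the fit. Ccr7, described among the priming genes, lost its call without mice 1 and 5 (-0.61, adjusted p = 0.0615). Ccr6, a receptor of B and T cells, averaged 6.06 and 5.94 in KO LSK mice against 6.94 and 7.09 in WT LSK mice (-1.01 ± 0.10, adjusted p = 0.000451), and kept its call in all 17 alternatives that measured it. For the difference between the KO effects 0 genes of the 6 lists passed with limma. At an unadjusted p under 0.05 these were 1 lymphoid priming gene, 1 interleukin-7 signalling gene, 2 transcription factors and 2 chemokine receptors, and with all arrays in the fit 1, 1, 1 and 2 passed. Ccr7 belongs to both the priming and the chemokine receptor list, so these counts overlap.

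**Figure D4:**
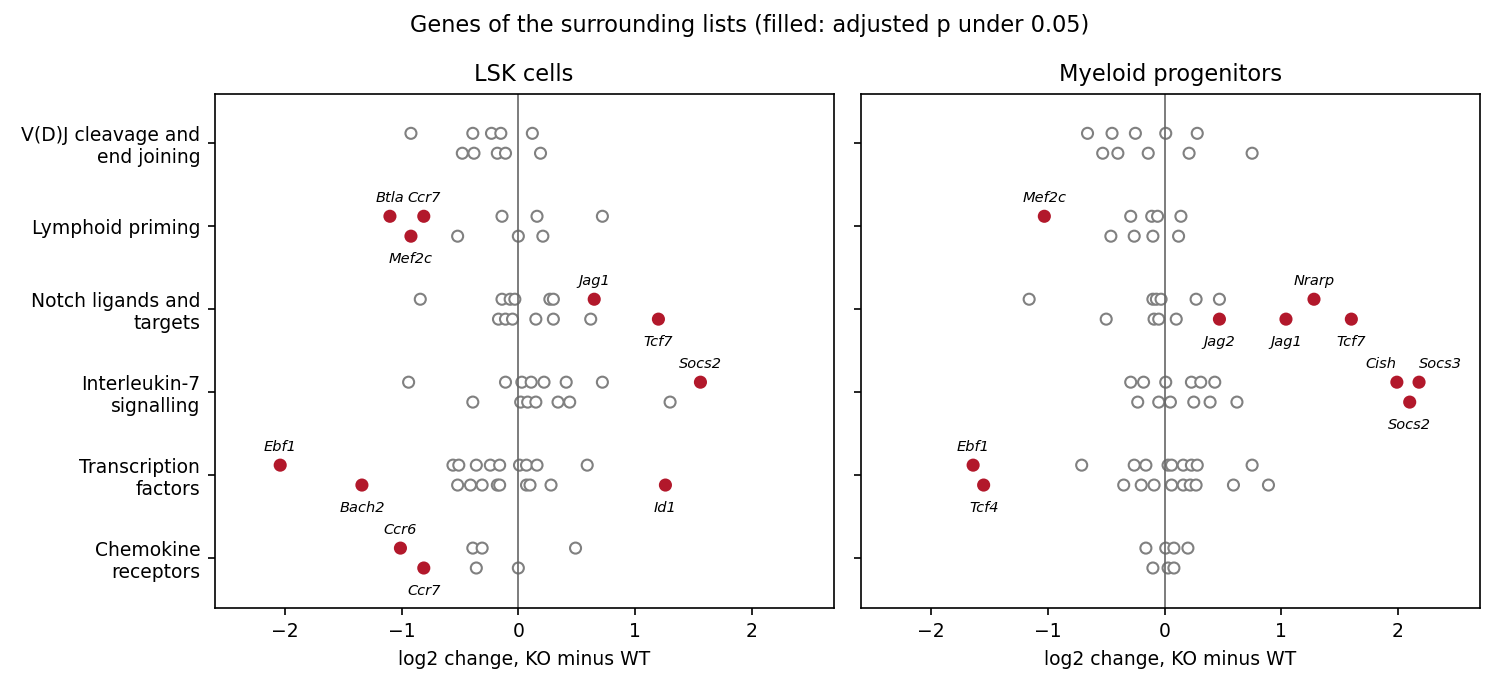
Log2 change, KO minus WT, of the genes in 6 pathway lists other than the 6 under study, in LSK cells (left) and myeloid progenitors (right); each point is a gene, and filled, named points passed at an adjusted p under 0.05. Ebf1 is the lowest named gene in both panels (-2.04 and -1.64), and Socs2, Socs3 and Cish lie near 2 in myeloid progenitors.

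Both gates removed cells with lineage markers, a step meant to take out mature B and other lineage cells; which antibodies were used is not given in the labels. Markers of such cells were read beside the 6 genes. Of 14 measured pro-B and B cell markers, 8 were called lower in KO LSK cells and 6 in KO myeloid progenitors. Their mean level per mouse was 6.99 to 7.23 in KO LSK mice against 8.71 to 8.75 in WT LSK mice, and 7.04 to 7.07 in KO myeloid progenitors against 8.12 to 8.28 in WT ones. In LSK cells 9 of the 14 averaged under 6.5 in KO mice and 2 in WT mice, and in myeloid progenitors 9 in KO mice and 7 in WT mice. Without mice 1 and 5, 9 were called lower in LSK cells and 4 in myeloid progenitors. The surrogate light chain gene Vpreb1 (named after its values were seen) averaged 9.42 and 8.50 in KO LSK mice against 13.06 and 13.23 in WT LSK mice. The B cell commitment factor Pax5 read 6.22 to 6.45 in all 8 mice, near the low end of the scale, and Cd79a 6.93 to 7.49. The part of pro-B cell RNA in the differences of Rag1, Rag2, Dntt and Il7r was not tested.

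Plasmacytoid dendritic cell markers, a list that includes Ccr9, were called lower for 4 of 9 genes in KO LSK cells and 2 of 9 in KO myeloid progenitors. Their mean level was 8.58 to 8.86 in KO LSK mice against 9.52 to 9.57 in WT LSK mice, and 8.48 to 8.58 in KO myeloid progenitors against 9.07 to 9.22 in WT ones. Of 13 T cell markers 1 was lower in KO LSK cells and 0 in KO myeloid progenitors, with mean levels of 6.99 to 7.16 in KO LSK mice against 7.32 to 7.40 in WT LSK mice. Of 10 myeloid progenitor markers 4 were called higher in KO LSK cells, with mean levels of 11.40 to 11.75 in KO mice against 10.52 to 11.12 in WT mice; 0 were called without mice 1 and 5. Of 9 natural killer and innate lymphoid markers 2 were lower and 1 was higher in KO LSK cells, and 0 were called in KO myeloid progenitors. Of 7 erythroid markers 1 was lower in KO LSK cells and 0 were called in KO myeloid progenitors. Of 7 megakaryocyte markers 1 was lower and 1 higher in KO LSK cells (median 0.49), and 1 lower and 2 higher in KO myeloid progenitors (median 1.22). Of 7 mast cell and basophil markers 1 was lower and 1 higher in each population. Of the 10 stem and multipotent progenitor markers 0 were called in KO LSK cells and 1 was lower in KO myeloid progenitors. The part of these cell types in the differences of the 6 genes was not tested.

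Across the 8 mice the levels of Rag1 and Rag2 went together most closely among the 6 genes (Pearson r = 0.956), followed by Rag2 and Il7r (0.898) and Rag1 and Il7r (0.89), while Rag1 and Satb1 had the lowest value (0.525). The mice form 4 groups, so these values largely describe the group means, and n is 8 mouse means. Among 4981 other genes whose level spanned at least 1 over the mice, the profiles nearest to Rag1 were those of Slc18b1 (0.991), Ttbk2 (0.99) and Slc9a9 (0.989). Nearest to Rag2 were Tfcp2 (0.988), Parp11 (0.982) and Tek (0.981). Nearest to Dntt were Marcks (0.985), Ppcdc (0.983) and Tox (0.98), and nearest to Il7r were Plekha8 (0.996), Cd101 (0.991) and Dnajc18 (0.99). Ccr9 was nearest to Zfp354c (0.996), Ccr7 (0.991) and Slc18a1 (0.985). For Satb1 the nearest were Itga2 (0.956), Crebl2 (0.954) and Nr1d2 (0.951), the lowest such values of the 6 genes.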

How the data were processed

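The deposited table holds log2 expression values processed by the authors for 24 one-colour arrays (Cy5), with limma named without a version per the submitters' processing notes. Ranked values differed by no more than 0.0451 between arrays, as after quantile normalization. For the scanner, background correction and spot filters the sources used here give nothing. Of 22439 probes, 18213 were named by current symbol in a RefSeq table (GRCm38.p6), 2126 by synonym and 36 by the platform's own name, and 2064 had no symbol.

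The 3 arrays of each mouse were averaged, because the mouse is the replicate. The fit to these 8 profiles used limma 3.58.1 (R 4.3.3), lmFit and a robust eBayes with a mean-variance trend, over all 4 groups (4 residual degrees of freedom, median prior 6.91). Its two-sided p-values were adjusted across the 22439 probes by the Benjamini-Hochberg method, with a threshold of 0.05. Whether mice of a group share a litter or a sort is not stated. Beside the 6 measured genes, up to 4 further genes past the threshold in a KO minus WT contrast were named from each pathway list, those with the largest change, and for each measured gene the 3 genes with the highest r. The genes and the lists were chosen with earlier results of these data known. Arrays carry no count depth, and 2 mice per group limit the precision. Alternatives covered all arrays with mouse as random block, the array number as a replicate block, the compared groups alone, no trend and robust options, median centring, filters at the 25th and 50th percentile of probe means, the mean of all probes of a gene, each mouse left out, mice 1 and 5 left out, and Kdm5d as a covariate. Their use on the pathway and marker genes was added after seeing the data. The fit was tested on simulated data. Sequences were taken from RefSeq promoters (GRCm38.p6), which matched all 6 measured genes.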

Additional observations from a re-analysis of the deposited data

Results flagged for a closer look

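In the WT myeloid progenitors, 1 array stood far from the others of its group for Ccr9. Array 3 of mouse 6 read 6.70, while the highest of the 6 arrays read 7.77, and its gap to the nearest array was 0.81 of the group's whole range, above the critical value of 0.625. Of 24 groups of 6 arrays examined (6 genes in 4 groups), this was the only one past that value, and chance flags about 1 in 20 groups. The 6 arrays come from 2 mice and are not independent.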

How the results depend on the processing

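Counts of the 6 genes called depended on the processing as follows. With the options trend and robust left out, 2 passed in LSK cells (4 in the analysis above), 1 in myeloid progenitors (2), 3 between the WT populations (5) and 0 between the KO populations (1). With all arrays and the mouse as a random block, 6 passed in LSK cells, 3 in myeloid progenitors and 2 for the difference of effects. In that fit 5 passed between the WT populations and 2 between the KO populations. With the array number as a replicate block besides, the counts were the same. These fits used a single mouse correlation for all probes (0.442 and 0.443). Where the arrays of a mouse lie closer together than that, their p-values are too small. The array numbers did not pair the arrays: deviations of arrays with the same number correlated at -0.25 to 0.28 (median 0.01), and 6 of 24 arrays were closest to one of their own number. Between the KO populations 2 passed with the compared groups alone, 2 with probes above the 50th percentile and 2 without mice 1 and 5, and without these mice 2 passed between the WT populations. Leaving out each mouse in turn gave 3 to 5 in LSK cells, 1 (without mouse 8) to 3 (without mouse 6) in myeloid progenitors, 0 for the difference of effects, 1 to 5 between the WT populations and 0 to 2 between the KO populations. Some signs turned. Ccr9 in myeloid progenitors, at -0.16 in the analysis above, was 0.10 with Kdm5d as a covariate. The difference of effects of Dntt, at -0.61 with all mice, was -1.26 without mouse 5 and 0.04 without mouse 6. With each mouse left out in turn, values near 0 between the KO populations also changed sign. There Rag2 ranged from -0.04 to 0.05, Ccr9 from -0.16 to 0.10 and Satb1 from -0.26 to 0.22. Over all genes the calls in LSK cells were 515 lower and 309 higher, against 1476 and 1195 with all arrays and 237 and 94 without mice 1 and 5, and in myeloid progenitors 308 and 161, against 973 and 656 and 177 and 66. The cause was not tested. Values near 6 are at the low end of the array's scale, which limits Rag2 in all mice and Rag1 in KO mice. It also limits Il2rg, Ccr4, Erg and Ikzf3 of the pathway lists, which read 5.78 to 6.11 in all 8 mice.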
